A study of Mus musculus with 6 samples.

Results

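The Gadd45 family and the kinases downstream of it were followed through 6 genes: Gadd45a, Gadd45b and Gadd45g, the MAP kinase kinase kinase Map3k4 (also called MTK1), and the P38 kinases Map2k3 (MKK3) and Map2k6 (MKK6). They were found as the non-control probes that carry these gene names, 7 probes for 6 of 34761 genes on the array, 6 of the probes tested. The genes were chosen from the measured difference between the genotypes compared here, so their differences are given as a description, without p-values.

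RNA came from CD71highTer119+ BM erythroblasts, immature red cells, sorted from PHZ-treated mice of 2 genotypes, with 3 mice each and 1 Agilent array per mouse. P38α+/− mice carried Mx1-Cre with 1 floxed allele of P38α (P38α fl/+) and P38α−/− mice carried Mx1-Cre with P38α fl/fl, all on a C57Bl/6 background. Mx1-Cre is switched on by interferon in hematopoietic and other responsive cells, and both genotypes received the same 3 injections of PolyIC (300 µg), which induces it, at 6 to 8 weeks of age, followed by 6 weeks of rest. PHZ, a drug that destroys red cells, was then given once to all mice at 100 mg per kg, and the cells were taken on day 4. The controls thus carried 1 allele open to deletion, and no group was untreated.

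Gadd45 proteins are small stress-inducible proteins without enzyme activity. Each of them can bind the amino-terminal part of Map3k4 and open it into its active form, after which Map3k4 phosphorylates Map2k3 and Map2k6, the kinases that activate P38, and Map2k4 and Map2k7, the kinases that activate JNK. The axis therefore lies upstream of P38α itself, and Gadd45 genes are also known for roles in cell cycle arrest and DNA repair.

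The probes that gave the values are shown by their first 30 bases, as the array files give them, with the mm9 position and strand of the whole 60-base probe, since each value speaks for that stretch of transcript and for no other. In lower case throughout, none of the letters are marked.
Gadd45a, chr6:66985376-66985435, minus strand: aagggacaaaaactacaaagcactgcaaga
Gadd45b, chr10:80394367-80394426, plus strand: ctatatctctctagaggaacgctgagaccc
Gadd45g, chr13:51943733-51943792, plus strand: acttagccgactgcactgctctttcaaaaa
Map3k4, chr17:12420553-12420612, minus strand: cctggtcgttggctctgactgtggagcctc
Map2k3, chr11:60765712-60765771, plus strand: gcaggttgtatatatattttaaatcacaac
Map2k6, tested probe, chr11:110374803-110374862, plus strand: ccgactgtcaactcaaccgtggctgatcat
Map2k6, dim probe, chr11:110386219-110386278, plus strand: aagggggtaaacacctttcttccatatcca
Each of the 7 sequences belonged to 1 probe of the array only. The probes of related genes had little in common: the longest run of bases shared on either strand was 7 between Gadd45a and Gadd45g, 6 between Gadd45b and either of them, and 8 between Map2k3 and Map2k6. The exon or UTR that each probe reads was not assigned here.

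The promoters of the Gadd45 genes and of Map3k4 are shown because 3 of these genes were higher on all P38α−/− arrays and Gadd45b was not. Within P38α−/−, Gadd45g did not share the array order of Gadd45a and Map3k4. The 250 bases before the RefSeq start in GRCm38.p6 are given 5′ to 3′ on the gene's strand. Capitals mark matches, on either strand, to any of 7 motifs, which are spelled out below and did not overlap each other in these windows. The octamer was added to them after the sequences had been seen.
Gadd45a, chr6:67037408-67037657, minus strand: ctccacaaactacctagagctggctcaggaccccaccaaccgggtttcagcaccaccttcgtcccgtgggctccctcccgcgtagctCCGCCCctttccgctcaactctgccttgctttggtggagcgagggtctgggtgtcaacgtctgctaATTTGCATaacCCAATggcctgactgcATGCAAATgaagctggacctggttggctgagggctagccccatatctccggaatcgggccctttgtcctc
Gadd45b, chr10:80929841-80930090, plus strand: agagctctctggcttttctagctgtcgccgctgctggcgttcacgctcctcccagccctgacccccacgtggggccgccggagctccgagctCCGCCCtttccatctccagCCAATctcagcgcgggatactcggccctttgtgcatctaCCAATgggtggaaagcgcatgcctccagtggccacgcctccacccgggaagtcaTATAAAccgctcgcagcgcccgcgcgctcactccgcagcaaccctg
Gadd45g, chr13:51846425-51846674, plus strand: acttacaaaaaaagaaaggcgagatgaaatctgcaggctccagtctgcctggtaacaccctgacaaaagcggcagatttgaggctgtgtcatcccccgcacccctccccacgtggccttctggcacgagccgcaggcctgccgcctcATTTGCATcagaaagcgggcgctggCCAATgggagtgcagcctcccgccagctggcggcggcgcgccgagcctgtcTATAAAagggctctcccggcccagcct
Map3k4, chr17:12318661-12318910, minus strand: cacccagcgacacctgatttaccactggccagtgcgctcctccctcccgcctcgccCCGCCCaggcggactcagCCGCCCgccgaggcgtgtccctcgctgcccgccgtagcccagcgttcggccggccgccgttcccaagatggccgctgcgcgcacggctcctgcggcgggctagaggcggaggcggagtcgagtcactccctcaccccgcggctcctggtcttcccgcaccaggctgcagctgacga
All 3 Gadd45 promoters held a CCAAT box (searched as these letters), as did 33.8% of the 32851 promoter windows of this length. The octamer, ATTTGCAT, was found in Gadd45a, at positions −97 to −90 and −70 to −63, and in Gadd45g, at −103 to −96, and in 1.6% of all windows. Gadd45g and Gadd45b held a TATA box, searched as TATAAA (12.4% of all windows), at −27 to −22 and at −46 to −41, and Gadd45a and Map3k4 held none. An SP1 motif, GGGCGG, stood in Gadd45a, Gadd45b and Map3k4 (32.7% of all windows) and not in Gadd45g. An AP-1 motif, TGANTCA, stood in none of these 4 windows and in 6.75% of all windows. A CRE, TGACGTCA, stood in none of them and in 1.55% of all windows. The same held for a GATA motif, searched as AGATAA, which stood in 9.99% of all windows. Of the members not shown, Map2k6 held an AP-1 motif (−232 to −226) and a GATA motif (−139 to −134), and Map2k3 held neither. The Map3k4 window had no CCAAT box and the most CG dinucleotides of the 4, 31 against 11 to 22 in the Gadd45 windows and a median of 6 over all windows. A match is a description of the letters, and factor binding was not measured.

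Levels below are log2 signals after subtraction of the array's own 75th percentile, which was taken over the 15150 probes that every array read well above background, and a difference is the mean of the arrays labelled P38α−/− minus the mean of the P38α+/− arrays. Levels of different probes are not comparable with each other. Mapk14, the gene of P38α, was not lower in the arrays labelled P38α−/−. Its brighter probe read 0.33, 0.59 and 0.61 in P38α+/− and 0.77, 1.19 and 1.21 in the arrays labelled P38α−/−, and its dimmer probe −3.78, −3.37 and −3.37 against −4.44, −2.86 and −3.19. The files do not say which stretch was deleted, so these probes may lie outside it and do not check the labels. Probes well above background made up 36.8% to 53.1% in P38α+/− and 28.9% to 35.9% in the arrays labelled P38α−/−, and the median tested probe differed by −0.16. The 3 mice per genotype are separate animals, and their number limits the precision of every value.

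The sort was checked against marker lists, by the brightest probe of each gene. The genes listed as late erythroid markers, Slc4a1, Alas2, Epb42, Tfrc, Gata1 and Klf1, were well above background on all 6 arrays. Their mean level lay between 3.63 and 4.03 in P38α+/− and between 3.68 and 4.04 in P38α−/−. Tfrc encodes CD71, on which the cells were sorted, so it is not a separate check of the sort. The 9 neutrophil markers were also well above background on every array, with a mean level of 2.52 to 4.14 in P38α+/− and 1.49 to 2.10 in P38α−/−. Of 5 B cell markers, 1 was well above background on every array, with a mean level of −6.40 to −3.47 against −7.34 to −6.24. Of 4 T or NK cell markers 2 were, at −4.61 to −2.50 against −5.38 to −4.26. Of 7 monocyte or macrophage markers 4 were, at −4.95 to −3.36 against −5.88 to −4.02. Mrc1 was well above background on no array. Of 5 megakaryocyte or platelet markers 3 were well above background on all arrays, at −4.22 to −3.62 against −4.22 to −3.83, and Ppbp on none. Of 4 early erythroid markers 1 was well above background on all arrays, at −5.10 to −3.51 against −6.61 to −5.05. The summed signal of the neutrophil list, on the log2 scale, was 6.79 to 8.16 in P38α+/− and 5.89 to 6.38 in P38α−/−. That of the late erythroid list was 7.90 to 8.20 in P38α+/− and 7.79 to 8.24 in P38α−/−. Such sums over different probes do not give shares of cells. The part of other cells in the values of the 6 genes was not tested, and in a bulk sample fewer cells of a type and less RNA per cell cannot be told apart.

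Gadd45g had the widest separation between the genotypes relative to its spread within them. This member of the family was first known as a gene induced by cytokines. In P38α+/− its probe read −0.27, −0.17 and −0.42, and in the arrays labelled P38α−/− 2.79, 2.56 and 2.75. The lowest P38α−/− array lay far above the highest P38α+/− array, and within each genotype the arrays stayed close together (−0.29 ± 0.12 and 2.70 ± 0.12, SD, n = 3). The log2 difference was 2.99 with a standard error of 0.15, a 7.93-fold higher signal. The scanner signal before scaling ran from 670 to 1158 in P38α+/− and from 5135 to 9297 in P38α−/−, and no spot was saturated. Only 6 of the 14025 tested genes, itself included, had a difference of at least this size. Gadd45g was the only gene among the 6 to pass the threshold used for all genes (limma, adjusted p no higher than 0.05 and a fold no smaller than 2), which 0.207% of tested genes passed. It no longer passed when P38α+/− replicate 2 or any P38α−/− array was left out, with a slide block, with E1A spike-in centring or without a filter on dim probes. With the percentile taken over all probes, Gadd45a, Map3k4, Map2k3 and Map2k6 passed as well, among 778 of the 14025 tested genes. Map3k4 passed with array weights, among 440 genes, and Map2k6 without P38α+/− replicate 3, among 97. As this contrast chose the genes, nothing is read from these counts of members.

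Gadd45a, the DNA damage-inducible and P53-regulated member, was higher by less. In P38α+/− it read 0.86, 0.84 and 0.84, and in the arrays labelled P38α−/− 1.59, 1.78 and 1.72. The P38α+/− values were nearly identical (0.85 ± 0.01, SD, n = 3), the P38α−/− values varied a little more (1.70 ± 0.10), and the groups did not overlap. The log2 difference was 0.85 (standard error 0.14), or 1.80-fold, and it exceeded that of 98.0% of tested genes.

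Gadd45b, an early response member induced by TGFβ and inflammatory signals, did not share this direction. It read −4.20, −3.28 and −5.72 in P38α+/− and −5.60, −5.88 and −5.79 with the label P38α−/−. The genotypes overlapped, because P38α+/− replicate 3 lay among the P38α−/− arrays, while the other P38α+/− arrays were higher. Its probe was dim, with scanner signals of 28.1 to 134 in P38α+/− and 15.3 to 26.7 in P38α−/−, and it was not well above background in P38α−/− replicate 1. The log2 difference was −1.36 (standard error 0.58), and without P38α+/− replicate 3 it was −2.02 with no overlap, as it was −1.44 with no overlap without P38α−/− replicate 1. Without P38α+/− replicate 2 it was −0.80, and the genotypes overlapped. The spread within P38α+/− (1.23, SD) was more than any other member showed there apart from Map2k6.

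**Figure D1:**
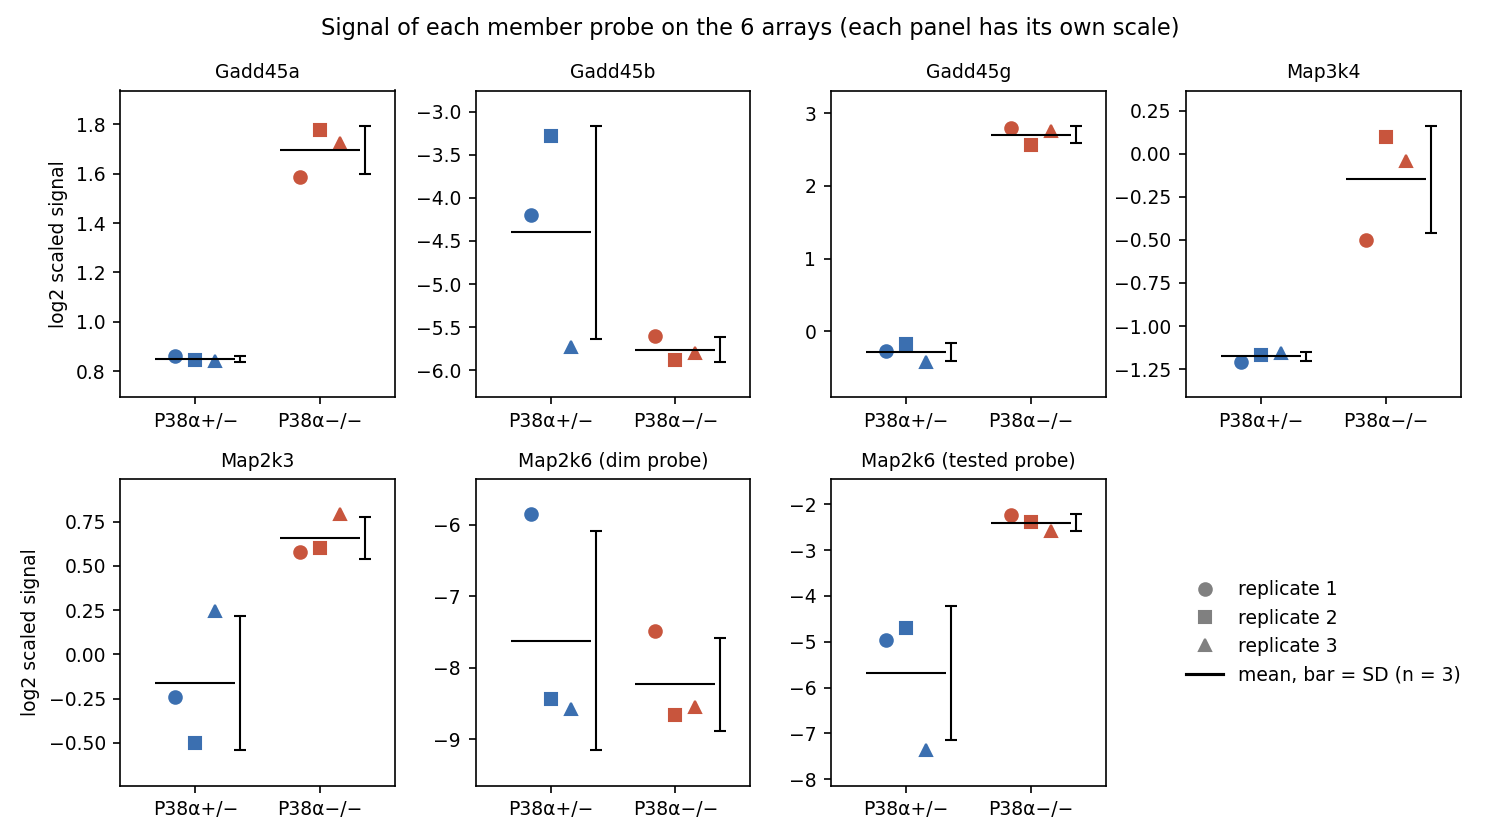
Scaled log2 signal of each of the 7 probes on the 6 arrays. Points are arrays, with the shape giving the replicate number, lines are genotype means and bars are SD (n = 3). Gadd45a, Gadd45g, Map3k4, Map2k3 and the tested Map2k6 probe have all P38α−/− arrays above all P38α+/− arrays, and Gadd45b and the dim Map2k6 probe overlap.

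Map3k4, the kinase that Gadd45 proteins open, read −1.21, −1.17 and −1.16 in P38α+/− and −0.50, 0.10 and −0.04 in the arrays labelled P38α−/−. All P38α−/− arrays were higher, and replicate 1 stood below the other P38α−/− arrays. The pattern resembled that of Gadd45a, with hardly any spread in P38α+/− (0.03, SD) and more in P38α−/− (0.31). The log2 difference was 1.03 (standard error 0.19), or 2.04-fold, and 183 tested genes, Map3k4 included, differed by at least as much in this direction.

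Map2k3, of the 2 kinases directly upstream of P38, read −0.24, −0.50 and 0.25 in P38α+/−, against 0.58, 0.60 and 0.79 with the label P38α−/−. The groups did not overlap but were closest at P38α+/− replicate 3 and P38α−/− replicate 1. The log2 difference was 0.82 (standard error 0.22), or 1.76-fold.

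Map2k6, the other of these kinases, was near background in P38α+/− and clearly detected in P38α−/−. Its tested probe read −4.96, −4.71 and −7.37 in P38α+/−, where replicate 3 was not well above background, and −2.23, −2.39 and −2.59 in the arrays labelled P38α−/−. All P38α−/− arrays were higher. The scanner signal was 26.0, 49.96 and 8.99 in P38α+/− and 158, 301 and 226 in P38α−/−, so that the size of the difference depends on how the background is treated. The log2 difference was 3.28 (standard error 0.69), or 9.69-fold, and fell to 1.69 with a normexp background correction. The second Map2k6 probe, further along the same strand, did not rise well above background anywhere and was not tested. It read −5.85, −8.43 and −8.58 in P38α+/− and −7.49, −8.65 and −8.55 in P38α−/−, and so showed no level to set beside the tested probe.

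Of the 6 genes, 5 had all P38α−/− arrays above all P38α+/− arrays, a pattern that 7.31% of tested genes showed, and none had all of them below, as 19.5% of tested genes did. The median log2 difference of the 6 was 0.94, against −0.14 for all tested genes. Both counts restate how the genes were chosen. In addition, Map2k6 was tested only through its P38α−/− arrays and Gadd45b only through its P38α+/− arrays, in each case the higher group. A filter for probes well above background on every array leaves Map2k6 and Gadd45b out. With each array set against the array of the same replicate number, Gadd45g differed by 3.06, 2.74 and 3.16, Gadd45a by 0.72, 0.93 and 0.88, Map3k4 by 0.71, 1.26 and 1.11, Map2k3 by 0.81, 1.10 and 0.54, and Map2k6 by 2.73, 2.32 and 4.78. Every one of these pairs had the higher value in the array labelled P38α−/−. For Gadd45b the differences were −1.41, −2.598 and −0.07, so the size of its difference came from replicates 1 and 2.

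**Figure D2:**
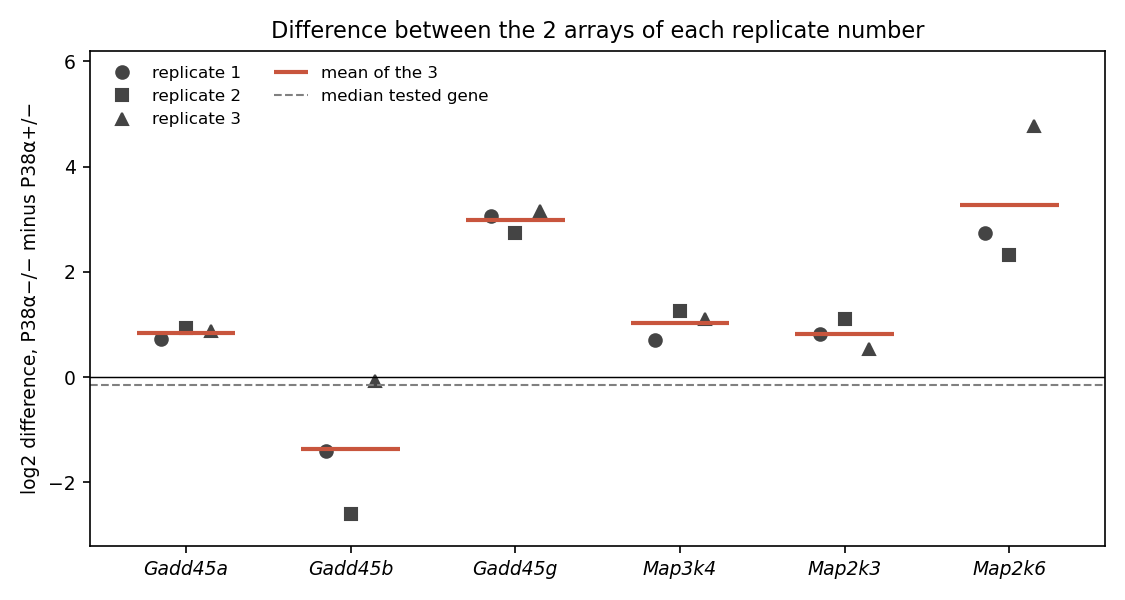
Log2 difference between the array labelled P38α−/− and the P38α+/− array of the same replicate number for each gene, with the mean of the 3 as a line and the median tested gene dashed. The 3 values for Gadd45g, 2.74 to 3.16, lie close together, and those for Gadd45b and Map2k6 are the most scattered.

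Whether the genes moved together was also looked at within each genotype, where the difference between genotypes plays no part. In P38α+/−, Gadd45b and Map2k6 deviated from the genotype mean in the same direction on each array, by 0.20, 1.12 and −1.32 and by 0.72, 0.97 and −1.69. Map2k3 deviated the opposite way on each of these arrays, by −0.08, −0.33 and 0.41. Gadd45a, Gadd45g and Map3k4 stayed within 0.13 of their means there. Of these, Gadd45g had the signs and array order of Gadd45b and Map2k6 at a smaller size, by 0.01, 0.12 and −0.13. In P38α−/−, Map3k4 and Gadd45a were low in replicate 1 (−0.35 and −0.11) and highest in replicate 2 (0.24 and 0.08), while Gadd45g was highest in replicate 1 (0.09) and lowest in replicate 2 (−0.14). Gadd45b, dim in P38α−/−, had the array order of Gadd45g there too, by 0.16, −0.12 and −0.04. With 3 arrays per genotype these are descriptions, and the 6 genes showed no common order of the arrays within either genotype. In P38α+/−, Map2k6 and Gadd45b had the widest spread (1.47 and 1.23, SD), and in P38α−/− Map3k4 did (0.31). The array not well above background was P38α+/− replicate 3 for Map2k6 and P38α−/− replicate 1 for Gadd45b.

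**Figure D3:**
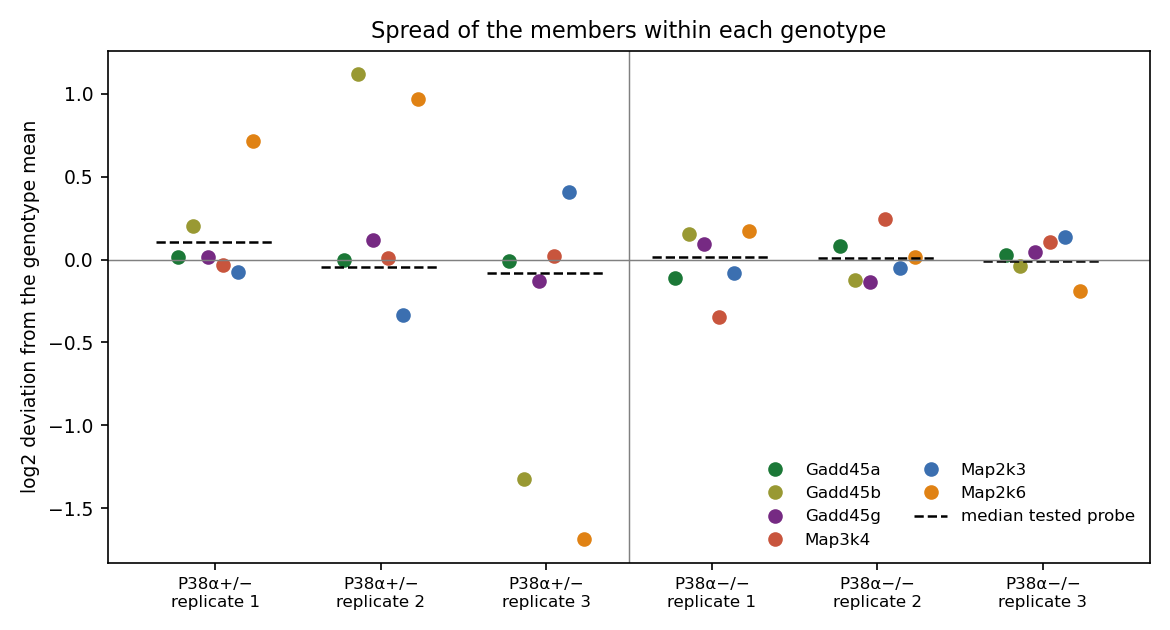
Deviation of each gene from its genotype mean on each array, in log2 units, with the deviation of the median tested probe as a dashed line. Gadd45b and Map2k6 lie together above the mean in P38α+/− replicates 1 and 2 and far below it in replicate 3, and the other genes stay within 0.41 of their means.

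Over all 6 arrays, which fall into the 2 genotypes, a correlation mainly reflects how cleanly a gene separates them. Among the 11727 other genes whose probe was well above background on every array, Gadd45a had the rank 27 in likeness to Gadd45g (Pearson's r = 0.98 over 6 arrays), Map3k4 the rank 235 (r = 0.93) and Map2k3 the rank 551 (r = 0.85). The 5 genes most like Gadd45g were Nacc2, Itgb7, Tmem109, Frmd8 and K230015D01Rik, with r from 0.994 to 0.999. Their log2 differences were 2.77, 2.56, 0.71, 1.05 and 2.01. The 5 genes most like Map3k4 were Xrcc6, Tnpo1, Lancl1, Asb8 and Nhlrc4, with r from 0.994 to 0.997, and Gadd45a followed at rank 24 with r = 0.98. Their log2 differences were 0.21, 0.76, 0.64, 0.54 and 1.42. The points share the arrays and their scaling, and Gadd45b and Map2k6 were not ranked because each was not well above background on 1 array.

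The genes around the axis were taken from lists of the P38 and JNK module. Of 37 listed genes, 27 could be tested, and none passed this threshold in limma. The smallest adjusted p among their brightest probes was 0.110. Without adjustment, at the same p and fold, 2 of the 27 passed, as did 10.7% of all tested genes, and by the methods' unpaired equal-variance test with adjustment 0 passed. Their median log2 difference was −0.23, close to that of all tested genes. All P38α−/− arrays were above all P38α+/− arrays for 2 of the 27 and below them for 8, where 7.31% and 19.5% of all tested genes showed these patterns.

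Among the other MAP3 kinases, 10 of 15 were tested, with a median log2 difference of −0.29. They ranged from Map3k2, at −1.18 (standard error 0.72, limma adjusted p = 0.39), to Taok3, at 0.20 (standard error 0.19, adjusted p = 0.60). The Map3k2 probe was dim and well above background on only 1 P38α−/− array, so it was tested only through P38α+/−, where its mean was higher. No other MAP3 kinase had all P38α−/− arrays above the P38α+/− arrays by its brightest probe. A dimmer tested probe of Taok3 did, with a log2 difference of 0.60 (standard error 0.24, limma adjusted p = 0.22). The adaptors of this tier were all tested. They ran from the ubiquitin ligase Traf6, at −0.54 (standard error 0.30, limma adjusted p = 0.36), to Tab1, an activator of the kinase Map3k7 that can also bind P38α, at 0.29 (standard error 0.16, adjusted p = 0.35).

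The kinases next to Map2k3 and Map2k6 in the cascade are Map2k4 and Map2k7, which act on JNK. In P38α+/−, Map2k4 had a mean of −3.18 ± 0.16 (SD, n = 3), against −3.49 ± 0.23 in P38α−/−, and the genotypes overlapped. Its log2 difference was −0.31 (standard error 0.18, limma adjusted p = 0.38). Map2k7 was well above background on 2 of 3 arrays in each genotype and was not tested.

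Of the P38 genes, Mapk11 and Mapk12 stayed below that level on every array. Mapk13 read −1.82, −1.73 and −3.25 in P38α+/− and −3.16, −3.80 and −3.29 in P38α−/−, with a log2 difference of −1.15 (standard error 0.44, limma adjusted p = 0.21), and the genotypes overlapped. The brighter Mapk14 probe differed by 0.54 (standard error 0.19, limma adjusted p = 0.19) and the dimmer by 0.01 (standard error 0.42, adjusted p = 0.99). Of the JNK genes only Mapk9 was tested, at −0.10 (standard error 0.22, limma adjusted p = 0.84) by its brighter probe. The dimmer Mapk9 probe differed by −0.64 (standard error 0.17, limma adjusted p = 0.14), with all P38α−/− arrays below all P38α+/− arrays. Mapk8 and Mapk10 had no probe well above background on all arrays of a genotype. The kinases that P38 phosphorylates, 7 of 7 tested, ran from Mapkapk3, at −1.45 (standard error 0.45, limma adjusted p = 0.16), to Mknk2, at 0.44 (standard error 0.20, adjusted p = 0.27).

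**Figure D4:**
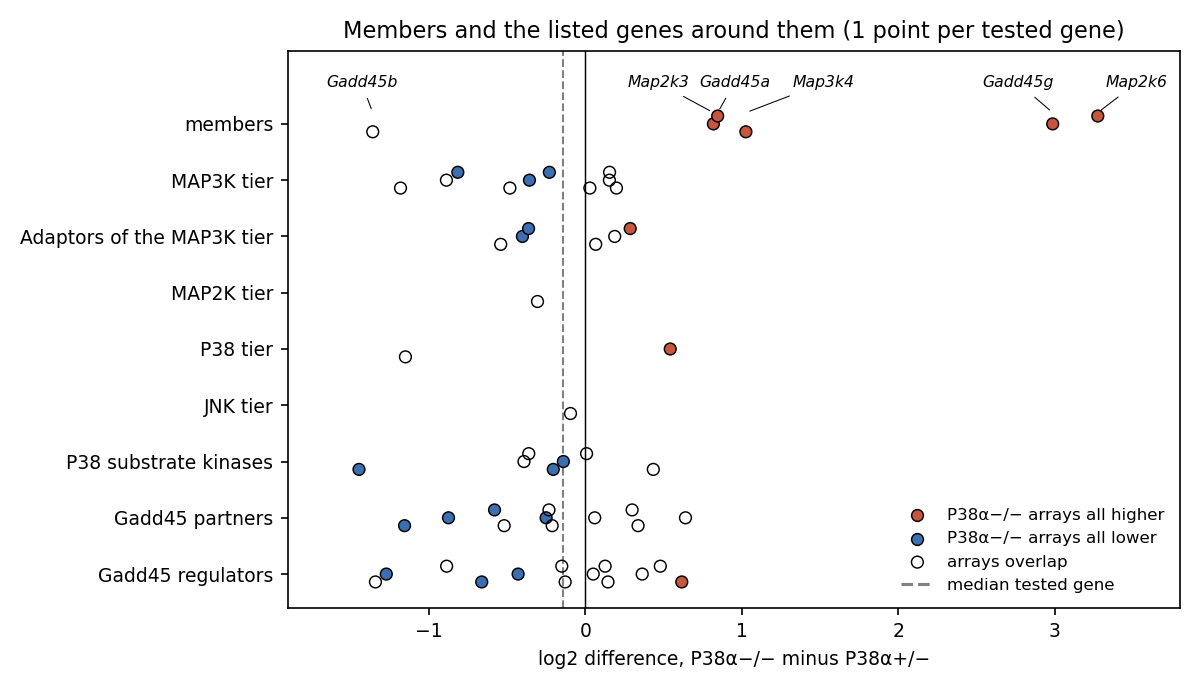
Log2 difference between genotypes of the 6 genes and of the tested genes in each list, by the brightest tested probe. Red points have all P38α−/− arrays above all P38α+/− arrays, blue points all below, and open points overlap. The dashed line is the median tested gene, at −0.14. The 5 higher members lie at 0.82 and above, and the highest of the other listed genes, Cdkn1a, at 0.64.

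Proteins that bind Gadd45 proteins, or share their name, were listed as partners. All 11 were tested, none passed in limma, and 1 passed without adjustment at the same p and fold (10.7% of all tested genes). Their median log2 difference was −0.23, with 4 of 11 lower and none higher without overlap, against 19.5% and 7.31% of all tested genes. The lowest was Cdk1, the mitotic kinase, at −1.15 (standard error 0.27, limma adjusted p = 0.11). This Cdk1 probe was dim, with scanner signals of 41.5 to 47.0 in P38α+/− and 13.5 to 25.5 in P38α−/−. It was well above background on only 2 P38α−/− arrays, so it was tested only through P38α+/−, where it was higher. Another Cdk1 probe, too dim to be tested, differed by −0.38 with overlapping genotypes. The highest was Cdkn1a, which encodes the cell cycle inhibitor P21, at 0.64 (standard error 0.41, limma adjusted p = 0.42).

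Of 19 transcription factors listed as regulators of Gadd45 genes, 18 had a probe and 13 were tested. None passed in limma, and 2 of 13 passed without adjustment at the same p and fold (10.7% of all tested genes). The median log2 difference was −0.13. The highest was Rela, a subunit of NF-κB, which read 0.83, 0.72 and 0.68 in P38α+/− and 1.36, 1.39 and 1.33 in P38α−/−. Its difference was 0.62 (standard error 0.14, limma adjusted p = 0.11), and the genotypes did not overlap. The lowest was Nfkb1, another subunit, at −1.34 (standard error 0.46, limma adjusted p = 0.18), with overlapping genotypes. The Nfkb1 probe was well above background on only 2 P38α−/− arrays, so it was tested only through P38α+/−, where its mean was higher. Trp53, the P53 gene, differed by 0.48 (standard error 0.60, adjusted p = 0.69), and Pou2f1 and Nfya, which bind the octamer and the CCAAT box, by −0.43 (standard error 0.17, adjusted p = 0.22) and −0.15 (standard error 0.20, adjusted p = 0.72), all by limma and named after their values were seen.

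The direction of each of the 6 genes held under every alternative processing that gave a value. There were 17 of these for the genes detected on all arrays and 16 for Gadd45b and Map2k6. Among them, the dim-probe filters, the replicate block and the mean over tested probes cannot change a member's difference. The slide block repeats the fit without P38α−/− replicate 3. Gadd45g lay between 2.92 and 3.47, Gadd45a between 0.81 and 1.33, Map3k4 between 0.90 and 1.51 and Map2k3 between 0.65 and 1.30. Map2k6 lay between 1.69 and 3.86, and Gadd45b between −2.02 and −0.48. With the arrays centred on the E1A spike-in spots, the groups remained apart for Gadd45g and Map2k6 only, and those of Gadd45a, Map3k4 and Map2k3 overlapped. How many of all tested genes stayed apart under this centring was not computed.

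**Figure D5:**
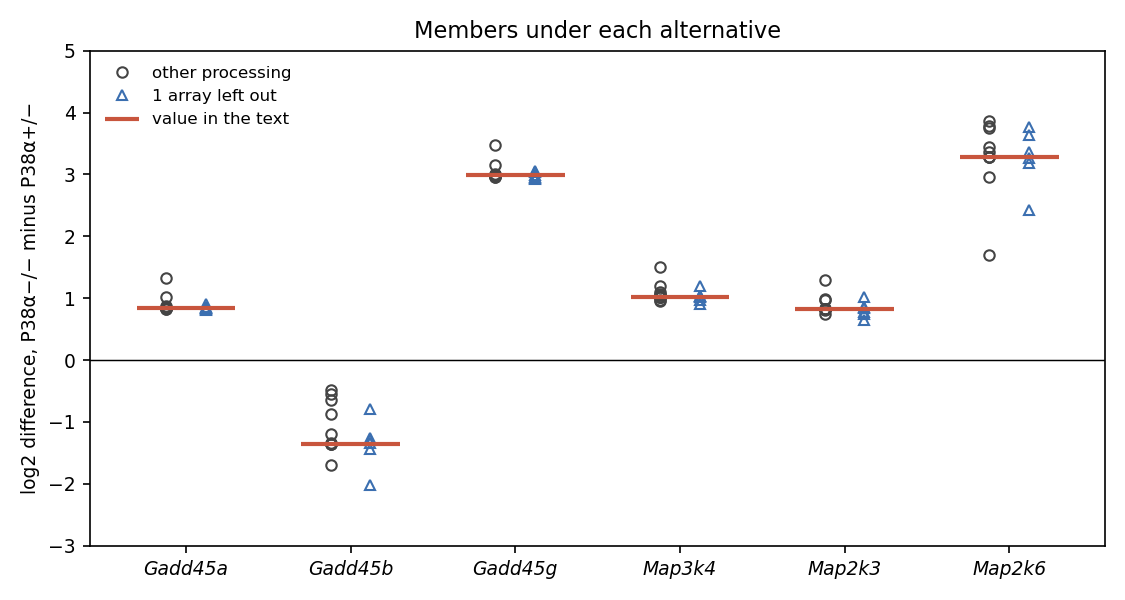
Log2 difference between genotypes of each gene under the processing described in the text (line), under other processing (circles) and with 1 array left out (triangles). Every value keeps the sign of the line, and the widest ranges are those of Map2k6, 1.69 to 3.86, and Gadd45b, −2.02 to −0.48.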

How the data were processed

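RNA of sorted CD71highTer119+ BM erythroblasts (10 ng per mouse) was amplified and put on 1-colour (Cy3) Agilent arrays covering the mouse genome, which were read with Agilent Feature Extraction 10.7.3.1. The authors deposited the intensity of every spot as the software wrote it, background-subtracted and not normalized between arrays. They also deposited a table of normalized intensities without a description of its steps, used here as an alternative. Groups and replicate numbers came from the sample labels.

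The 6 genes and all gene lists were chosen with earlier results of these data known. All probes that carry the name of a member were named, with Mapk14. From each list, called genes and those with the highest and lowest difference were named, from tiers of up to 4 genes all, and so were the 5 genes most correlated with Gadd45g and with Map3k4. From the late erythroid markers, 1 gene is not reported here and was left out of their mean.

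Control and outlier spots were dropped and spots of a probe averaged, and the members kept a value on every array. Log2 signals were scaled by subtracting a 75th percentile per array. Probes were tested where all 3 arrays of either genotype read them well above background, which left 18547 of 55681 probes. Genotypes were compared with limma 3.58.1 in R 4.3.3 (two-sided), with Benjamini-Hochberg adjustment over all tested probes, and a gene was called once if any probe passed. Each gene's difference is that of its brightest tested probe. The fit was tested on simulated data. The 6 genes were in the fit, but their p-values are not given, since this contrast chose them. Promoter sequences came from RefSeq (GRCm38.p6), with all 6 genes matched, and probe positions are those of mm9.

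Arrays of the same replicate number deviated together (correlations of 0.39, 0.24 and 0.39 over the tested probes), and the design text deposited with the series speaks of pairs of mice. The main fit is unpaired, as in the study's methods. Since P38α−/− replicate 3 had a slide to itself, blocking on slide equals dropping that array. Alternatives covered the scaling, background, dim-probe filter, source of values, blocks, test, array weights and each array left out.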

Additional observations from a re-analysis of the deposited data

How the results depend on the processing

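The count of 29 called genes moved with the processing, and the directions of the 6 genes did not. The count was 778 with the percentile over all probes (53.9% of them higher in P38α−/−, against 79.3%), 12 with quantile normalization, 8 with E1A centring, 17 with normexp background, 0 without a filter on dim probes, 62 with the stricter filter and 11 with the authors' normalized table. It was 67 with the replicate block (26.9% higher), 0 with the slide block, 2 with the methods' unpaired equal-variance test and 440 with array weights. With 1 array left out it ran from 0 to 97, with 0 without P38α+/− replicate 2 or any one of the P38α−/− arrays and 97 without P38α+/− replicate 3. The paired analysis, with the replicate block, cannot change a member's difference in this balanced design. It changed no call of a member or list. Each count of 0 came from limma with adjustment, and without it 1128 to 2351 genes passed in those fits.

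The members called were 1 of 6 in the values above, 5 with the percentile over all probes, 2 with array weights, 0 with E1A centring, the slide block or no filter, and 0 to 2 with 1 array left out. Of the 14025 tested genes, 29 were called in the values above, 778 with the percentile over all probes and 440 with array weights. The number of members higher without overlap fell from 5 to 2 with E1A centring. The share of all tested genes with this pattern was not computed under that centring, so nothing is read from the drop. The E1A level, taken after subtraction of the array's own percentile as in the main values, was high in replicate 1 of each genotype. It exceeded the mean over the arrays by 1.25 log2 units in P38α+/− and 1.19 in P38α−/−. This level sets the spots against the array's other signal, so it does not give the brightness of the spots alone. The median of the members was 1.42 with the percentile over all probes and 1.10 with E1A centring, and Gadd45g was 3.47 and 3.15. These scalings moved the median of all tested probes to 0.32 and 0.01, and relative to that median Gadd45g stayed between 2.93 and 3.26 under every setting. Smad4 was the 1 listed gene called by any alternative, lower with array weights. Without P38α+/− replicate 3, Gadd45b was −2.02 and Map2k6 2.43. Causes of these shifts were not tested. Low signal over background limits the values of Gadd45b and Map2k6.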
